A study of Mus musculus with 6 samples.

Results

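A set of 10 genes of myoblast adhesion and fusion was followed in C2C12 cells, a mouse myoblast line that withdraws from the cell cycle and fuses into myotubes when serum is lowered. They were the fusion proteins Mymk and Mymx, the adhesion molecules Cdh15, Cdh2 and Ncam1, the membrane genes Cav3, Dysf and Myof, and the tetraspanins Cd9 and Cd81. They were chosen by name, and of these 9 were found among the 11835 genes for which transcripts were listed. The RNA level of Cav3, the muscle caveolin, was not analysed here.

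RNA was sequenced from 3 libraries of cells that had received NC siRNA (siNC) and 3 of cells that had received CNN3 siRNA (siCNN3), which is directed against the actin-binding protein calponin 3. Both groups carried an siRNA and were differentiated in medium with horse serum. The labels give the cell type of all of them as mouse myotube, and the paper calls the sequenced cells differentiating myoblasts. No source says that the libraries came from separate cultures, so p-values measure the spread between these libraries, which may be technical.

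Myoblasts fuse in steps. Cells recognise and hold each other through cadherins and NCAM, the cortical actin and the membranes are rearranged, and the lipid bilayers are joined by myomaker (Mymk) and myomixer (Mymx), which is also called myomerger or minion. Tetraspanins such as CD9 and CD81 organise adhesion molecules in the membrane and are best known in fusion of sperm and egg, while dysferlin and myoferlin are calcium-binding ferlins that act in membrane repair and vesicle fusion.

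The authors deposited FPKM (fragments per kilobase of transcript, scaled to the mapped fragments of each library), and the FPKM of all transcripts of a gene were summed. Genes averaging 0.5 FPKM or more over the 6 libraries, 11593 in all, were tested on log2(FPKM + 1) with limma. Benjamini-Hochberg adjustment ran over all of them, and genes whose adjusted p was under 0.05 were called. All 9 listed genes passed this filter, but Mymk and Mymx passed only through their siNC values. Fold changes are given on this scale, where the 1 added makes the change of low genes look smaller. The depth is unknown. A listed 0 may stand for an estimate that failed, as 238 transcripts combined a 0 with 10 FPKM or more within a single group. Other annotated genes overlap Cdh15, Cdh2, Ncam1, Dysf, Cd9 and Cd81 but were not listed, and the sources used here do not say whether fragments were assigned by strand, so reads of such pairs cannot be told apart.

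Replicate 1 of siNC stood apart from the other 5 libraries, with 2131 transcripts listed at 0 (978 to 1333 in the others) and a summed FPKM of 322621 (347064 to 355591 in the others).
Cnn3, the targeted gene, was at 62.8, 61.4 and 62.8 FPKM with NC siRNA against 19.04, 39.2 and 25.6 FPKM with CNN3 siRNA. The groups did not overlap, and the log2 fold change was -1.19 (SE 0.242, limma adjusted p = 0.0669), so that Cnn3 itself was not called.
Of 12 myotube markers, 10 were listed and 9 tested, and 6 of these (Acta1, Myh3, Mylpf, Tnnc2, Tnnt1 and Tnnt3) were called lower in siCNN3. The FPKM of the listed myotube markers added up to between 68.7 and 104 in siNC and to between 17.6 and 20.8 in siCNN3. Markers of undifferentiated myoblasts, 5 of 6 listed, added up to between 853 and 988 FPKM in siNC and to between 650.2 and 1015 in siCNN3, with 0 called and 4 of 5 below 0. Most of this sum was Vim, and the groups did not overlap for Des and Myod1, both lower in siCNN3, while Myf5 was above 0 with overlap. Pax7, Ptprc, Adgre1 and Itgam were among the markers not analysed here. Fibroblast markers were listed for 4 of 7, all 4 below 0 with 0 called. They added up to between 141 and 202 FPKM in siNC and to between 66.5 and 110 in siCNN3. Most of this sum was Dcn. The groups did not overlap for Dcn and Dpt, while they overlapped for Col1a1 and Pdgfra. Adipocyte markers, 3 of 5 listed, added up to between 22.1 and 30.1 FPKM in siNC and to between 15.7 and 18.0 in siCNN3. Of these, 2 were below 0, with Fabp4 called lower and Cebpa overlapping, while Pparg was above 0 with overlap. Blood and immune markers, 3 of 8 listed (Cd68 and 2 globins, of which Hbb-bs was called lower), added up to between 151 and 425 FPKM in siNC and to between 34.4 and 46.1 in siCNN3. The part of these cells or RNAs in the results that follow was not tested. In bulk RNA, fewer cells of a type and less RNA per cell cannot be told apart.

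None of the 9 genes was called by limma in either direction. Over all tested genes 239 were called (2.06%), of which 200 were higher (1.73%) and 39 lower (0.336%). At an unadjusted p below 0.05, Mymk, Mymx and Cd9 were lower in siCNN3 and 0 of the 9 were higher, beside 16.1% of all tested genes in either direction, 9.94% higher and 6.14% lower. The siNC and siCNN3 libraries did not overlap for Mymk and Mymx, both lower in siCNN3, and they overlapped for the other 7. Among all tested genes the groups did not overlap for 23.1%, with 13.8% higher and 9.35% lower in siCNN3. The log2 fold change was above 0 for 1 of the 9 genes and for 54% of all tested genes, and its median was -0.11 over the 9 genes and 0.03 over all.

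**Figure D1:**
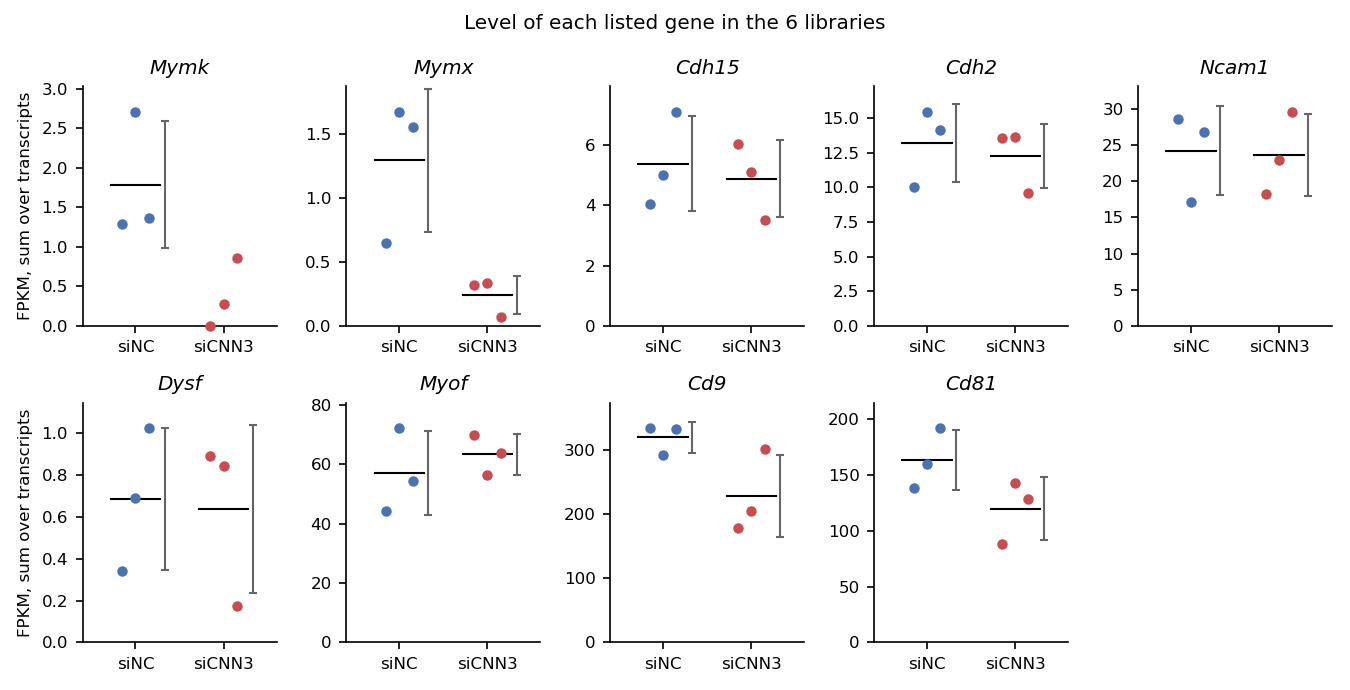
FPKM of each listed gene (sum over its transcripts) in the 3 siNC and 3 siCNN3 libraries. Points are libraries, horizontal lines are group means and grey bars are 1 SD on either side of the mean (no mean or SD is drawn for Mymk in siCNN3, where 1 value is listed at 0). The 3 siCNN3 points lie below the 3 siNC points for Mymk and Mymx, while the groups overlap in the other 7 panels.

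The levels of these genes spanned a wide range, which can be compared between genes because FPKM is per length. By the mean over the 6 libraries, Cd9 ranked 176th and Cd81 358th of the 11593 tested genes, Myof 1028th, Ncam1 2837th, Cdh2 4881st and Cdh15 8103rd. Mymk ranked 10911th, Mymx 11244th and Dysf 11385th, near the lower limit of the filter. Down to Cdh15, neighbours in this order did not overlap within siNC or within siCNN3, so their order was larger than the spread between libraries in both groups. In siNC the levels of Mymk and Mymx overlapped, as did those of Mymx and Dysf, while every Mymk value was above every Dysf value. In siCNN3 the levels of the 3 genes overlapped, so that their order was not separated from the spread there. The mean of Mymx was above that of Dysf in siNC (1.30 and 0.685 FPKM) and below it in siCNN3 (0.244 and 0.634 FPKM).

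Myomixer is a short membrane protein. In the build GRCm38, Mymx is on chromosome 17 (45600971 to 45602102, minus strand), and its only listed transcript, Mymx-203, has 2 exons and encodes 84 residues within 1 exon (45601417 to 45601671 with the stop codon). Its coding sequence is shown because the whole open reading frame is short enough to be read at once, with the start and stop codons in capitals.
Mymx: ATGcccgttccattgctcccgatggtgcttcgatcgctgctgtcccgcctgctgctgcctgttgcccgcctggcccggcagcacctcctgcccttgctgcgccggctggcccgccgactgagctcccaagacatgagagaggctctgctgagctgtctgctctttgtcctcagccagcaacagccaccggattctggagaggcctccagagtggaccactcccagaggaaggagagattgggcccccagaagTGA

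Mymx was listed at 0.650, 1.68 and 1.56 FPKM in replicates 1 to 3 of siNC, against 0.323, 0.338 and 0.0719 FPKM in those of siCNN3. All siCNN3 values were below all siNC values, and siNC replicate 1 was the lowest of its group. On average siNC had 1.30 ± 0.563 FPKM and siCNN3 0.244 ± 0.150 FPKM (SD, n = 3 each), which is 18.9% of the siNC mean. In limma the log2 fold change was -0.86 (SE 0.234, 95% interval -1.41 to -0.30), and its p was 0.00823 before and 0.131 after adjustment.

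Mymk encodes myomaker, a membrane protein of several spans that is needed on both fusing cells. It lies on chromosome 2 (27061636 to 27072179, minus strand), and 1 of its 2 annotated transcripts was listed, Mymk-201 with 5 exons and 221 codons. Mymk was at 1.29, 2.71 and 1.36 FPKM in replicates 1 to 3 of siNC, against 0, 0.277 and 0.856 FPKM in those of siCNN3. The groups did not overlap, and siCNN3 replicate 3 came closest to siNC. The value of siCNN3 replicate 1 is listed at 0, so no mean with its error is given for siCNN3, while the siNC mean was 1.78 ± 0.800 FPKM (SD, n = 3). In limma the log2 fold change was -1.03 (SE 0.297, 95% interval -1.73 to -0.32), and its p was 0.0108 before and 0.15 after adjustment. That fit uses the listed 0, and Mymk, like Mymx, passed the filter only through its siNC values.

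For both fusion genes the two-sided exact permutation test gave p = 0.1, the smallest that 3 libraries against 3 allow. Under the 15 alternatives that could be run for them their adjusted p was between 0.0601 and 0.43 for Mymk and between 0.0675 and 0.372 for Mymx. With a pseudocount of 0.1 in place of 1 the log2 fold changes were -2.43 for Mymk and -2.04 for Mymx. With a pseudocount of 1 and without siNC replicate 1 they were -1.15 and -1.08. Without siNC replicate 2 they were -0.80 and -0.73, the smallest changes over the alternatives. The sum of the myotube markers moved in the same direction as these genes, and its part in the result was not tested.

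The genes whose level followed Mymx most closely over the 6 libraries were Peg3, Myog and Mylk, with a root mean square difference of 0.0753, 0.0779 and 0.0794 on the log2(FPKM + 1) scale after each gene was centred on its mean. Myog, which encodes the myogenic transcription factor myogenin, was at 1.23, 3.07 and 2.26 FPKM in replicates 1 to 3 of siNC, against 0.785, 0.907 and 0.485 FPKM in those of siCNN3. As in Mymx, siNC replicate 1 was the lowest of its group and siCNN3 replicate 3 the lowest of all. Its log2 fold change was -0.85 (SE 0.251, limma adjusted p = 0.159). Mylk, a myosin light chain kinase gene, was at 8.91, 15.8 and 12.7 FPKM with NC siRNA against 7.11, 7.12 and 5.74 FPKM with CNN3 siRNA. Peg3, an imprinted zinc finger gene, was at 27.6, 45.1 and 41.4 FPKM with NC siRNA against 22.6, 23.9 and 19.8 FPKM with CNN3 siRNA.
Mymk was followed less closely, with differences of 0.137 for Adamts7, 0.148 for Neurl2 and 0.191 for March8. Adamts7, a secreted metalloproteinase gene, was at 11.6, 16.5 and 13.2 FPKM with NC siRNA against 5.27, 5.64 and 9.72 FPKM with CNN3 siRNA. It shared with Mymk the highest siNC value in replicate 2 and the highest siCNN3 value in replicate 3. These likenesses are descriptions over 6 libraries that also differ by treatment.

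**Figure D2:**
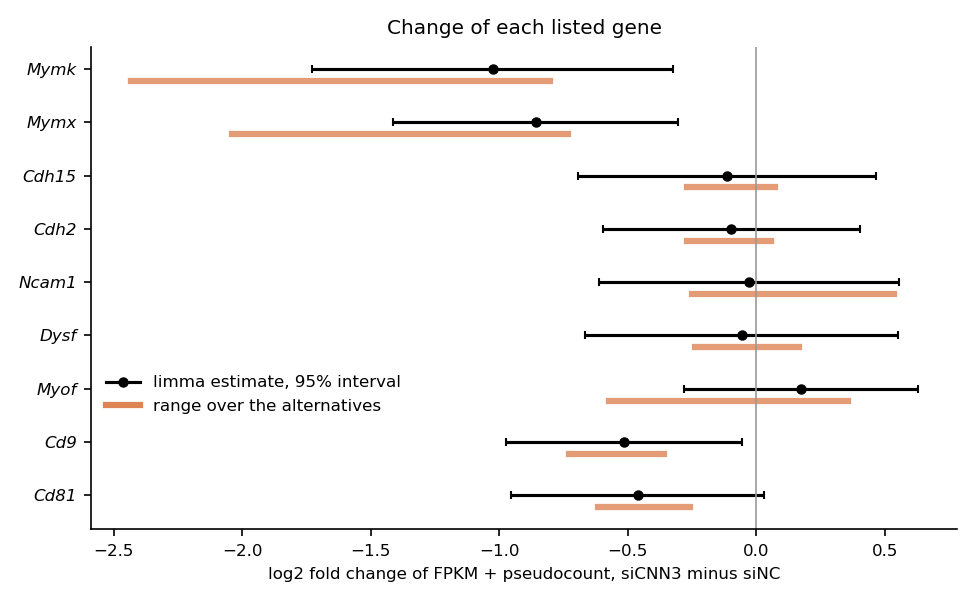
Log2 fold change of each listed gene, siCNN3 minus siNC. Black points and bars are the limma estimates with their 95% intervals on log2(FPKM + 1), and orange bars span the values under the alternatives, including a pseudocount of 0.1. The intervals of Mymk, Mymx and Cd9 lie below 0, and the orange bars of Cdh15, Cdh2, Ncam1, Dysf and Myof cross it.

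None of the 3 adhesion molecules was called, and the 95% interval of each included 0. Cdh15 encodes M-cadherin, the cadherin best known from satellite cells and fusing myoblasts (chromosome 8, 122847966 to 122867397, plus strand). It was at 4.05, 5.02 and 7.12 FPKM with NC siRNA against 6.05, 5.11 and 3.52 FPKM with CNN3 siRNA. The highest value was that of siNC replicate 3 and the lowest that of siCNN3 replicate 3, and the groups overlapped. The log2 fold change of Cdh15 was -0.11, with a 95% interval from -0.69 to 0.47 (adjusted p = 0.857, limma).
Cdh2 encodes N-cadherin, a cadherin shared with neurons and heart (chromosome 18, 16588877 to 16809246, minus strand). Its values were 10.1, 15.5 and 14.2 FPKM in siNC and 13.6, 13.6 and 9.59 FPKM in siCNN3, which overlapped. The log2 fold change of Cdh2 was -0.10, with a 95% interval from -0.60 to 0.40 (adjusted p = 0.859, limma). For both cadherins the sign turned when single libraries were left out, to 0.073 and 0.066 for Cdh15 without siNC replicate 3 or siCNN3 replicate 3, and to 0.019 and 0.058 for Cdh2 without siNC replicate 2 or siCNN3 replicate 3. Without siNC replicate 1 the log2 fold change of each was -0.27.

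Ncam1 encodes the neural cell adhesion molecule, an immunoglobulin superfamily protein that muscle cells express before innervation (chromosome 9, 49502136 to 49798925, minus strand). The sum of its 5 listed transcripts was 28.6, 17.2 and 26.8 FPKM in siNC and 18.3, 22.9 and 29.6 FPKM in siCNN3. The groups overlapped almost completely, with a log2 fold change of -0.03 and a 95% interval from -0.61 to 0.56 (adjusted p = 0.968, limma). The sign turned when replicate 1 (0.10) or 3 (0.059) of siNC or replicate 1 of siCNN3 (0.13) was left out, and with the most abundant transcript alone (0.54). None of its 5 listed transcripts was called, and differences between them were not tested. Ncam1-201, which encodes 725 residues, was at 4.81, 4.08 and 4.98 FPKM with NC siRNA against 2.09, 3.44 and 2.95 FPKM with CNN3 siRNA. Ncam1-202, with 849 residues, was at 4.19, 2.95 and 3.44 FPKM with NC siRNA against 1.76, 2.68 and 2.34 FPKM with CNN3 siRNA. These 2 of the 5 transcripts are given because their siCNN3 values were below their siNC values, as for 7.54% of the 21658 tested transcripts, while 17.9% did not overlap in either direction.
Tested as single transcripts, Ncam1-201 was at -0.57 (SE 0.211) and Ncam1-202 at -0.47 (SE 0.214) on the log2 scale, with limma adjusted p of 0.418 and 0.496. Of all tested transcripts 0.54% were called. The groups overlapped for the other 3 Ncam1 transcripts, at 0.41, -0.56 and 0.54 on the log2 scale. Ncam1-205, whose annotated start lies far downstream of the others and which has 20 exons, was at 8.94, 4.26 and 7.24 FPKM with NC siRNA against 10.5, 5.64 and 16.2 FPKM with CNN3 siRNA. It made up between 24.9% and 31.2% of the Ncam1 FPKM in siNC and 57.7%, 24.7% and 54.7% in siCNN3 replicates 1, 2 and 3. Its log2 fold change was 0.54 (SE 0.41, limma adjusted p = 0.702), and siCNN3 replicate 2 was within the siNC range in FPKM. Estimates of single transcripts rest on short stretches. Of all windows of 31 bases in Ncam1-202, 98.9% were also present in another listed Ncam1 transcript, and 88.3% of those in Ncam1-201.

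The ferlins stood far apart in level, Dysf near the lowest and Myof near the highest of the 9 genes. Dysf encodes dysferlin, the muscle ferlin that reseals torn membranes (chromosome 6, 84008590 to 84211060, plus strand). It was at 0.343, 0.689 and 1.02 FPKM with NC siRNA against 0.889, 0.842 and 0.172 FPKM with CNN3 siRNA. The groups overlapped, and the log2 fold change was -0.06 with a 95% interval from -0.66 to 0.55 (adjusted p = 0.94, limma). It was above 0 without siNC replicate 3 (0.085) or siCNN3 replicate 3 (0.17). Only 2 of 16 annotated transcripts were listed. In siCNN3 replicate 1, Dysf-215 held 65.4% of the Dysf FPKM, while in the other 5 libraries Dysf-204 held between 84.3% and 100% of it.

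Myof, which encodes myoferlin, was the more abundant of the ferlins (chromosome 19, 37899036 to 38043577, minus strand). Its sum was 44.2, 72.2 and 54.5 FPKM in siNC and 70.0, 56.3 and 63.8 FPKM in siCNN3. The siCNN3 values lay within the siNC range, and the log2 fold change was 0.17 with a 95% interval from -0.28 to 0.63 (adjusted p = 0.703, limma). It was between 0.0089 (without siNC replicate 1) and 0.36 (without siNC replicate 2) when 1 library was left out. The sum is made up mostly of 2 transcript estimates that varied between libraries. Myof-208 was listed at 0, 15.9 and 0 FPKM in replicates 1 to 3 of siNC, against 37.1, 0 and 39.9 FPKM in those of siCNN3. It was thus at 0 in 3 libraries, from both groups, and made up 53.0% and 62.5% of the Myof FPKM in siCNN3 replicates 1 and 3. Myof-211 was at 41.6, 52.6 and 52.1 FPKM with NC siRNA against 29.2, 54.0 and 21.2 FPKM with CNN3 siRNA, with its 2 lowest values in the libraries where Myof-208 was highest.
Myof-208 is annotated as a shorter form of Myof-211. All of its 4129 bases are also bases of Myof-211, it starts 1615 bases further in, and it leaves out a block of 675 bases, or 225 codons, that begins within exon 36 of Myof-211 and ends within its exon 43. Of its windows of 31 bases 99.4% are shared, and 24 windows, all across the join, are its own. The coding sequences around the join are shown because only fragments that cross it can tell Myof-208 from the other Myof transcripts. Capitals mark the 30 bases after the join in the first line, the first 30 bases of the block in the second and the 30 bases after the block in the last line.
Myof-208 across the join: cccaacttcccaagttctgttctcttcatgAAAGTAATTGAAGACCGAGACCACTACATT
Myof-211 into the block: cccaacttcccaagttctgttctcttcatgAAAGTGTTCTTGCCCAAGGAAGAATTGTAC
Myof-211 out of the block: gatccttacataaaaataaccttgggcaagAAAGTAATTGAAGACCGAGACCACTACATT

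The letters AAAGT open the block and also follow it. The block lies at chr19:37920778-37934765 of GRCm38, introns included. The direction of Myof depended on how these estimates were combined. Its log2 fold change was -0.52 (adjusted p = 0.439, limma) when transcripts that combined a 0 with 10 FPKM or more were left out of the sum. This rule was applied over the 6 libraries and not within a single group. With only Myof-211, its most abundant transcript, the log2 fold change was -0.57 (adjusted p = 0.495, limma). None of these 3 values was called.

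**Figure D3:**
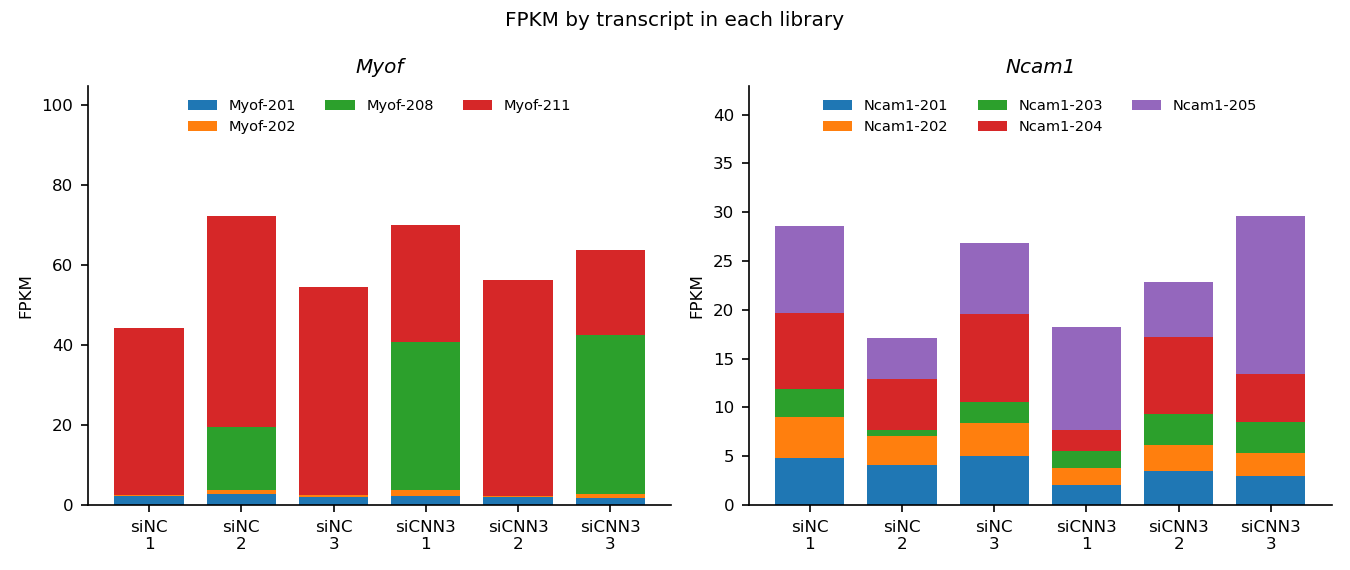
FPKM of Myof (left) and Ncam1 (right) in each library, with each bar divided by listed transcript. Myof-208 is present in siNC replicate 2 and in siCNN3 replicates 1 and 3 and listed at 0 in the other 3 libraries, and Ncam1-205 makes up over 54% of the bar in siCNN3 replicates 1 and 3.

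The tetraspanins were the most abundant of the 9 genes. Cd9 (chromosome 6, 125460266 to 125494791, minus strand) was listed with 1 transcript of 8 exons and 226 codons. It was at 334, 292 and 332 FPKM with NC siRNA against 179, 205 and 301 FPKM with CNN3 siRNA. Replicates 1 and 2 of siCNN3 were below every siNC library, while siCNN3 replicate 3 lay within the siNC range. On average siNC had 319.5 ± 23.7 FPKM and siCNN3 229 ± 64.1 FPKM (SD, n = 3 each), which is 71.5% of the siNC mean. In limma the log2 fold change was -0.51 (SE 0.194, 95% interval -0.97 to -0.05), and its p was 0.0332 before and 0.262 after adjustment. It was called, with a log2 fold change of -0.73 and an adjusted p of 0.0255 (limma), when siCNN3 replicate 3 was left out. In that fit 443 genes were called higher and 159 lower. Under the other alternatives the adjusted p of Cd9 was between 0.147 and 0.628. The two-sided exact permutation p was 0.2.

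Cd81 (chromosome 7, 143052739 to 143067934, plus strand) encodes a tetraspanin that is found with CD9 in membrane complexes. It was at 139, 159.5 and 192 FPKM with NC siRNA against 88.3, 143 and 129 FPKM with CNN3 siRNA. The lowest library was siCNN3 replicate 1, and only siCNN3 replicate 2 was above the lowest siNC value. On average siNC had 163 ± 26.9 FPKM and siCNN3 119.8 ± 28.2 FPKM (SD, n = 3 each), which is 73.3% of the siNC mean. The difference of -0.46 on the log2 scale (SE 0.207) had a 95% interval from -0.95 to 0.03 and an adjusted p of 0.337 (limma). The two-sided exact permutation p was 0.2, and the unadjusted p, 0.0624 in limma, ranged from 0.0196 to 0.195 over the alternatives. Without siCNN3 replicate 1 the log2 fold change was -0.26. Transcript Cd81-201 held between 98.9% and 100% of the Cd81 FPKM in every library.
The gene closest to Cd9 over the 6 libraries was S100a1, a calcium-binding protein of muscle, with a root mean square difference of 0.0303. S100a1 was at 93.0, 82.3 and 92.5 FPKM with NC siRNA against 47.4, 54.9 and 81.1 FPKM with CNN3 siRNA. Here too siCNN3 replicate 3 was the nearest to siNC, though no siCNN3 value reached the siNC range (log2 fold change -0.57, SE 0.2, limma adjusted p = 0.226).

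RefSeq promoter sequences of GRCm38.p6, from 250 bases before to 50 bases after the annotated start, were found for 6 of the 10 genes (Cdh15, Cav3, Dysf, Myof, Cd9 and Cd81). They were searched for E-boxes, the sites of myogenic factors such as MyoD and myogenin, spelled CANNTG, which reads the same on both strands. An E-box is common, with at least 1 match in 72.3% of the 32851 promoters in the table and a mean of 1.39 matches. The Cdh15 promoter had 4 matches, Cd9 had 3, Cav3 had 2, Cd81 had 1 and Myof had 0. Of the 2 promoters of Dysf, the first had 0 and the second had 1. The form CAGCTG, which is among those counted as CANNTG, was found in 16.3% of all promoters and once each in those of Cd9, Cd81 and Cav3. The promoters of Cd9 and Cd81 are shown, as those of the most abundant of the 9 genes, up to the base before the first annotated exon and with the E-boxes in capitals. For Cd9 this stretch leaves out 1 of the 3 matches. The stretch for Cd9 is chr6:125494792-125495010 on the minus strand, and the stretch for Cd81 is chr7:143052500-143052738 on the plus strand.
Cd9: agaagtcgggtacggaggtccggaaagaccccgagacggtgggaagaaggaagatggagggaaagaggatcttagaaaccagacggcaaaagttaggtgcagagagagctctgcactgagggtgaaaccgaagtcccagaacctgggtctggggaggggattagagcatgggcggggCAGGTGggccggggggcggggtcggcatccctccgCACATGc
Cd81: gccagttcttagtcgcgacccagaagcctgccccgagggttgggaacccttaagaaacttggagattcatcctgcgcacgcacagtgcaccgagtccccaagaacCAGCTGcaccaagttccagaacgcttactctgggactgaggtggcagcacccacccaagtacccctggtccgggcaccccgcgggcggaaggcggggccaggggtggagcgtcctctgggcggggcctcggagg

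Other genes of the same processes were taken from 4 lists, to be read against all tested genes, of which 9.94% were higher and 6.14% lower at p under 0.05 without adjustment, and 13.8% and 9.35% were higher and lower without overlap. Of 14 tested cadherin partners (17 in the list), 0 were called by limma, while 4 were lower and 0 higher at p under 0.05 without adjustment. Their groups did not overlap for 5, with 1 higher and 4 lower in siCNN3, beside the 13.8% and 9.35% of all genes. The median log2 fold change of this list was -0.20, and 3 of the 14 were above 0. The lowest was Cdon, a co-receptor that binds cadherins in differentiating myoblasts. Cdon was at 25.8, 21.7 and 35.7 FPKM with NC siRNA against 11.6, 12.2 and 15.4 FPKM with CNN3 siRNA, with no overlap. Its log2 fold change was -1.01 (SE 0.208, limma adjusted p = 0.0678), and it was called without siCNN3 replicate 3 (adjusted p = 0.0473, limma). Jup (plakoglobin) and Tjp1 (a tight junction scaffold) followed with log2 fold changes of -0.63 and -0.48 (adjusted p = 0.332 and 0.13, limma), and Tjp1 was called after quantile normalization (adjusted p = 0.0446, limma).

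Of 21 tested tetraspanins and their partners (24 in the list), 0 were called by limma, while without adjustment 2 were higher and 2 lower at p under 0.05. The groups did not overlap for 4 that were higher and 1 that was lower, where all genes gave 13.8% and 9.35%. Their median log2 fold change was -0.11, with 9 of 21 above 0. Itga7, the laminin-binding integrin subunit of muscle, was at 150, 119 and 138 FPKM with NC siRNA against 70.5, 74.6 and 125 FPKM with CNN3 siRNA. It showed the same order as Cd9 within siCNN3, with replicate 3 inside the siNC range. The log2 fold change of Itga7 was -0.63 (adjusted p = 0.244, limma), and it was called without siCNN3 replicate 3 (adjusted p = 0.0213, limma). Cd53 and Tspan17, 2 other tetraspanins, had log2 fold changes of 0.59 and -0.59 (adjusted p = 0.358 and 0.364, limma).

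Of 25 tested genes of caveolae and membrane repair (28 in the list), 0 were called by limma, while without adjustment 1 was higher and 4 were lower at p under 0.05. The groups did not overlap for 2 that were higher and 4 that were lower, beside 13.8% and 9.35% over all genes. The median log2 fold change was -0.19, with 5 of 25 above 0. Of the 4 cavins, which coat caveolae, the groups did not overlap for Cavin4 and Cavin1 and overlapped for Cavin2 and Cavin3, and 0 were called. Cavin4, the muscle cavin, was at 17.7, 22.3 and 21.8 FPKM with NC siRNA against 36.1, 34.1 and 28 FPKM with CNN3 siRNA, with no overlap (log2 fold change 0.64, limma adjusted p = 0.0939). Cavin1, the general caveolar coat protein, was at 174, 221 and 215 FPKM with NC siRNA against 137, 146 and 143 FPKM with CNN3 siRNA, also with no overlap (log2 fold change -0.51, limma adjusted p = 0.0913). Cavin1 was called under median-of-ratios scaling and quantile normalization (adjusted p = 0.038 and 0.0344, limma), and Cavin4 without siCNN3 replicate 3 (adjusted p = 0.0453, limma). Cav1, the caveolin of most other cells, was at -0.60 on the log2 scale (limma adjusted p = 0.325), with overlap.

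Of 34 tested genes of fusion signalling and actin (44 in the list), 0 were called by limma, while without adjustment 2 were higher and 1 lower at p under 0.05. The groups did not overlap for 3 that were higher and 7 that were lower, again beside 13.8% and 9.35%. The median log2 fold change was -0.09, with 14 of 34 above 0. The 3 with the largest change were Jam3, a junctional adhesion molecule, at 0.46, Cyfip1, a subunit of the WAVE actin regulator, at -0.44, and Il4ra, the interleukin-4 receptor, at -0.43, and the groups overlapped for each (adjusted p = 0.491, 0.53 and 0.578, limma). Adam9, a membrane metalloproteinase named here because of its values, was at -0.09 on the log2 scale as a sum (limma adjusted p = 0.688). It was called lower when transcripts that combined a 0 with 10 FPKM or more over the 6 libraries were left out (log2 fold change -1.56, adjusted p = 0.00519, limma). It was also called lower with its most abundant transcript alone (-2.29, adjusted p = 0.0217, limma).

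**Figure D4:**
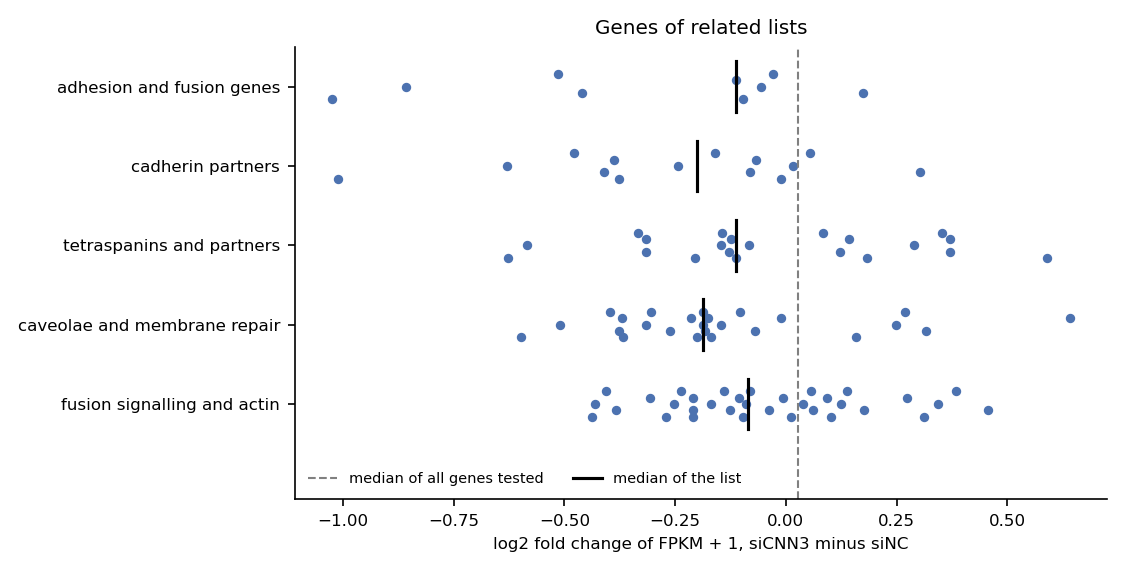
Log2 fold change on log2(FPKM + 1), siCNN3 minus siNC, of the tested genes of the 5 lists, with 1 point per gene. Short black lines are list medians, between -0.20 and -0.09, and the dashed line is the median of all tested genes, 0.03. Within each list genes lie on both sides of 0.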

How the data were processed

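C2C12 RNA was sequenced in 3 siNC and 3 siCNN3 libraries, grouped by their titles. The authors deposited FPKM for 24023 Ensembl transcripts in each library. The submitters' processing notes name Bowtie 0.12.2 and the builds mm8 and mm10 without their roles, and the program that estimated FPKM is not given in the sources used here. Without versions, 23949 identifiers matched GENCODE vM21 transcripts of GRCm38, and FPKM were summed per gene symbol.

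Log2(FPKM + 1) of genes that averaged 0.5 FPKM or more was fitted with limma 3.58.1 (R 4.3.3, mean-variance trend, Benjamini-Hochberg adjustment, threshold 0.05). The fit was also run on simulated data with independent noise. The outcome is not given here, and no statement on the accuracy of the fit rests on it. Single genes were also compared with two-sided exact permutation tests. Sequences came from GENCODE and RefSeq, and figures from matplotlib 3.10.9. The depth is unknown, so no counting error can be given.

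The genes, lists and tests were chosen with earlier results of these data known. Named are the 9 genes, Cnn3, the 3 genes with the largest change in each list and the 3 most alike to a gene. Not all are printed. Markers that were called are named too, and some tested markers that were not called are named with the marker sums. The latter, Adam9, Cavin2, Cavin3 and the single transcripts described were chosen after their values were seen.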

Additional observations from a re-analysis of the deposited data

How the results depend on the processing

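Tried were a pseudocount of 0.1, gene filters at 0 and at 5 FPKM, scaling by median of ratios and quantile normalization. Blocking by replicate number, a Student test and limma with no trend were tried too. So were sums that left out transcripts combining a 0 with 10 FPKM or more over the 6 libraries. The last were the most abundant transcript alone and omission of each library. None of the 9 genes was called in any of these alternatives, except Cd9, the 1 gene called lower without siCNN3 replicate 3 (counts between 0 and 1 with a library left out). Mymk, Mymx and Dysf had no value at 5 FPKM.

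Over all genes, 200 were called higher and 39 lower. Leaving out 1 library gave between 16 and 443 higher and between 4 and 159 lower. The counts were 0 and 0 with the Student test and 100 and 22 with the most abundant transcript alone, and 63 and 93 were lower under median-of-ratios scaling and quantile normalization. With the replicate block 62 were higher and 6 lower. Deviations of same-numbered libraries had correlations of -0.278, 0.314 and -0.0247, so the numbers were not taken to pair the libraries. Not every library was closest to its own number. The highest correlation was 0.442, between siNC replicate 1 and siCNN3 replicate 3. The lowest was -0.445, between siNC replicate 2 and siCNN3 replicate 3.

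Leaving out 1 library moved Cdh15 between -0.27 (siNC replicate 1) and 0.073 (siNC replicate 3), with 0.066 for siCNN3 replicate 3. It moved Cdh2 between -0.27 (siNC replicate 1) and 0.058 (siCNN3 replicate 3), with 0.019 for siNC replicate 2, and Dysf between -0.21 (siNC replicate 1) and 0.17 (siCNN3 replicate 3), with 0.085 for siNC replicate 3. Ncam1 moved between -0.25 (siNC replicate 2) and 0.13 (siCNN3 replicate 1), with 0.10 and 0.059 for siNC replicates 1 and 3. Myof turned to -0.52 when transcripts combining a 0 with high values were left out and to -0.57 with its most abundant transcript, where Ncam1 was at 0.54. The cause was not tested.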
